A study of Mus musculus with 12 samples.

Results

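The 9 genes described here encode the proteins that switch the circadian clock on and those that set how long its proteins last. They are the activators Arntl (Bmal1), Arntl2, Clock and Npas2, the kinases Csnk1d and Csnk1e, the ubiquitin ligase adaptors Btrc and Fbxw11, and the deubiquitinase Usp2. They were chosen by name, and a BMAL1-ChIP-seq peak was given to one of them when the nearest start site of a protein-coding transcript to its centre belonged to that gene. Of 35822 peaks in 6 libraries, 24 were assigned to these 9 of 21840 protein-coding genes, and they merged into 13 of 16818 regions.

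The cells were primary mouse adult fibroblasts (MAFs), which the study took from ear tissue of adult C57BL6/J females. Control MAFs were sham irradiated and senescent MAFs received 20 Gy of X-rays. The study kept irradiated MAFs in culture for weeks after the exposure, so they were not freshly irradiated. Cells of both groups were kept at 3% oxygen, synchronized with 100 nM dexamethasone, which sets cultured clocks to a common phase, and fixed 12 h later, so both groups carried this drug exposure and were seen at a single time. Each group had 3 BMAL1-ChIP-seq libraries, and the 6 input libraries of the series were not analysed here. Nothing in the labels says whether replicates came from separate animals or cultures, so p-values measure the spread between these libraries, which may be technical. Peak lists hold no expression values, so the fibroblast label could not be set against marker genes.

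BMAL1, the product of Arntl, pairs with CLOCK or its paralogue NPAS2 and binds the E-box CACGTG in the Period and Cryptochrome genes. The proteins of those genes return to the nucleus and repress the pair. Casein kinases 1 delta and epsilon (Csnk1d, Csnk1e) phosphorylate PERIOD proteins, the adaptors beta-TrCP1 and beta-TrCP2 (Btrc, Fbxw11) bring the phosphorylated proteins to a ubiquitin ligase, and the deubiquitinase USP2 removes ubiquitin from clock proteins. Arntl itself is known as a target of the ROR activators and REV-ERB repressors, which compete for a shared element in its promoter. The peak lists were used here to ask which of these genes BMAL1 itself was found at, in control and in senescent MAFs.

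The lists of control replicates 1, 2 and 3 held 2794, 3349 and 10601 peaks, and those of senescent replicates 1, 2 and 3 held 4220, 9805 and 5053. The lists give no reads, so the depth is unknown and an unlisted peak may still be bound by BMAL1 below the limit of the peak caller. Each peak has a score, read here as the −log10 of its q-value, that is not comparable between libraries. Peaks were therefore ranked within their own list, with rank 1 for the best score and a shared mean rank for ties. Ties were common, and between 85.7% and 92.7% of the peaks of a list shared their score with another peak. Merged regions join peaks that overlap by at least 1 bp.

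The regions that carried the results lay at Usp2, Csnk1e and Arntl, and in an intron of Npas2. Their sequences (GRCm38, plus strand, 5′ to 3′) are shown because they are the bases shared by all peaks of a region or the surroundings of a motif that the text describes. Capitals mark exact matches to the E-box CACGTG, its variant CACGCG, the AP-1 site TGACTCA or the ROR element core TAGGTCA, on either strand.
Usp2 internal promoter, chr9:44084733-44084929, the 197 bases common to the 3 senescent peaks: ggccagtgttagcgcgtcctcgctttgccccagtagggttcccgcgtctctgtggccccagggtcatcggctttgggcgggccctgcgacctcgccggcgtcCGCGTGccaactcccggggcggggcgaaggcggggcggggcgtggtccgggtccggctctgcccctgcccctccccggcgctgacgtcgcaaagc
Usp2 upstream promoter, chr9:44066851-44066880, the E-box: gtgctttttctcCACGTGgttctctgtata
Csnk1e beside the start site, chr15:79441098-79441220, 123 of the bases common to the 3 senescent peaks: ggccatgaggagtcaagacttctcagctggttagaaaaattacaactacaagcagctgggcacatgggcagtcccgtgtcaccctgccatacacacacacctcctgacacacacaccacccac
Csnk1e distal region, chr15:79464608-79464695, the 88 bases common to the 3 senescent peaks: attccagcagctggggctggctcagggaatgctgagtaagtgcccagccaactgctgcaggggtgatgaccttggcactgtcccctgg
Npas2 intron region, chr1:39282014-39282213, the 200 bases around the centre of its best-ranked peak: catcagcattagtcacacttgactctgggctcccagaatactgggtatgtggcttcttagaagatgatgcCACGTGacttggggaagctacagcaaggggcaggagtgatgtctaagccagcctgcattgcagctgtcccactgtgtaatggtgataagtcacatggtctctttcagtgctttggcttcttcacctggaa
Arntl promoter, chr7:113207160-113207231, the 72 bases common to its 2 peaks: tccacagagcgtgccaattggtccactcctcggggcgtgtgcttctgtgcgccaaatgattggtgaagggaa
Arntl ROR element, chr7:113207531-113207557: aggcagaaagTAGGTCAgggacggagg
Arntl distal 1, chr7:113147963-113148023: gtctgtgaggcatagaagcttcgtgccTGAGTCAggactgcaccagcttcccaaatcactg
Arntl distal 2, chr7:113151682-113151742: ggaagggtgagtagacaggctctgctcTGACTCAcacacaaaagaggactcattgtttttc
Arntl distal 3, chr7:113172597-113172657: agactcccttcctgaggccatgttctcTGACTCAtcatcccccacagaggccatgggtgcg
Arntl distal 4, chr7:113186165-113186225: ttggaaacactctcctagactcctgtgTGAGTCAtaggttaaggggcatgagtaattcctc

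Usp2 and Csnk1e were called in 3 of 3 senescent and 0 of 3 control libraries, each at 2 separate regions. No gene of the group was called in all 6 libraries, and Clock, Npas2, Csnk1d and Btrc were called in none. Arntl, Arntl2 and Fbxw11 were called in 1 to 4 libraries, at peaks mostly low in their lists. At least 1 peak in any library was found at 5 of the 9 genes, beside 36.4% of all protein-coding genes. A peak in all 6 libraries was found at 0 of 9, beside 5.14% of all genes. The pattern of 3 senescent and 0 control libraries was shown by 2 of 9, beside 1.48% of all genes, and the opposite pattern by 0 of 9, beside 0.499%.

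The senescent lists held more peaks at these genes in every library. The 3 control libraries held 0, 1 and 2 such peaks and the 3 senescent libraries 5, 9 and 7, so the groups did not overlap. Of all peaks, 3 of 16744 in the control and 21 of 19078 in the senescent lists were at these genes, or 1.79 and 11.0 per 10000. The longest list, control replicate 3 with its 10601 peaks, held 2 of them, whereas the 4220 peaks of senescent replicate 1 included 5. The number of genes with a peak was 0, 1 and 2 in control (mean 1.00 ± 1.00, SD, n = 3) and 3, 4 and 4 in senescent MAFs (3.67 ± 0.577, SD, n = 3), a difference of 2.67 genes. Over all protein-coding genes the share with a peak was 9.33%, 10.8% and 25.4% in control replicates 1, 2 and 3 and 14.4%, 26.5% and 16.6% in senescent replicates 1, 2 and 3. These shares varied with the length of the list and overlapped between the groups. The 9 genes were chosen with results of these data known, and no test was made over them. With each list shortened to its best 2794 peaks the difference was 2.00 genes. The gap in peaks rested on Usp2 and Csnk1e, which held 6 each of the 21 senescent peaks and none in control. Without these 2 genes the groups overlapped, since senescent replicate 1 had 1 other peak, at Arntl, and control replicate 3 had 2.

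**Figure D1:**
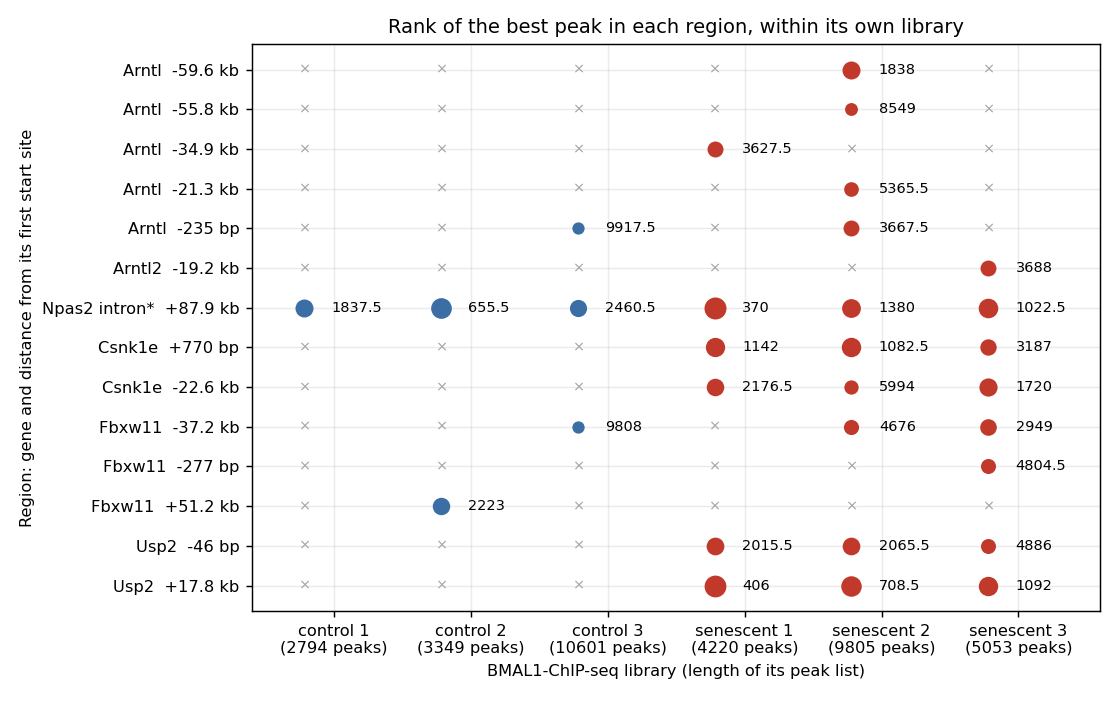
Rank of the best peak of each region (rows, named by gene and by the distance of the best peak's centre from the first start site of the gene) in each BMAL1-ChIP-seq library (columns, with the length of the list), where blue points are control, red points are senescent, larger points are better ranks and a grey cross means not called. The asterisk marks the intron region of Npas2, which is nearer to the start site of another gene, and the regions of Usp2 and Csnk1e have points in the 3 senescent columns and crosses in the 3 control columns.

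Usp2 (ENSMUSG00000032010.15, chr9:44067021-44095627, plus strand) had the best-ranked peaks of the group. The gene has 2 clusters of start sites. Transcripts from the upstream sites, the first at 44067021, code for a protein of 619 residues, and transcripts from the internal sites at 44084939 and 44084950 code for 396 and 393 residues. BMAL1 peaks were called at both clusters in each senescent library.

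At the internal promoter of Usp2 (chr9:44084524-44085067, in an intron of the longer transcripts), the peaks ranked 406 in senescent replicate 1, 708.5 in replicate 2 and 1092 in replicate 3. These ranks lay in the best 9.62%, 7.23% and 21.6% of the lists, and the scores were 31.5, 25.1 and 15.2. No control library had a peak here, and the peak nearest to any Usp2 start site in a control list was 28.7 kb away in replicate 3 and 192.9 and 193.0 kb away in replicates 1 and 2. The peak centres lay 100, 213 and 92 bp upstream of the internal start site. Among the 703 regions that ranked at 1092 or better in all 3 senescent lists, 37 were without a call in control, or 5.26%. The cut of 1092 was the lowest of these Usp2 ranks, so this region is among the 37 by construction. The 703 also include the best-ranked regions, such as those at Per1 and Ciart, which were called in every library.

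The upstream promoter of Usp2 (chr9:44066820-44067079) was called lower in the same 3 libraries. Its peaks ranked 2015.5, 2065.5 and 4886 in senescent replicates 1, 2 and 3, and the last of these lay near the end of its list, at 96.7% of its length. Centres were 46, 97 and 68 bp upstream of the first start site. The stretch also overlaps exons of Gm49380, a protein-coding model that runs through Usp2, and of the antisense transcript Gm39325, and a peak cannot be given to one of them rather than another.

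The sequence under the better-ranked Usp2 region held no canonical E-box. The internal promoter held 2 matches to CACGCG, at 44084526-44084531 and 44084835-44084840, of which the second lies in the bases common to the 3 peaks and is printed above. A match to CACGCG anywhere in a region was found in 9.41% of all regions and in 15.1% of the regions called in 3 senescent and 0 control libraries. At the upstream promoter an E-box at 44066863-44066868 lay inside the peak of senescent replicate 2, 61 bp from its centre. The peaks of replicates 1 and 3 began downstream of it, at 44066872 and 44066880.

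Csnk1e (ENSMUSG00000022433.19, chr15:79417856-79442002, minus strand) was called at a region beside its start sites and at another upstream of the gene. The first (chr15:79441071-79441394) overlaps an untranslated exon of Csnk1e and lay 615, 586 and 591 bp downstream of the nearest start site in senescent replicates 1, 2 and 3. Its peaks ranked 1142, 1082.5 and 3187, or 27.1%, 11.0% and 63.1% down the lists. The 3 control lists had no peak closer than 104.9 kb to a Csnk1e start site, with 113.5 kb in replicates 1 and 2.

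The second Csnk1e region (chr15:79464494-79464756) was intergenic, 22.6 kb upstream of the first start site. It ranked 2176.5 in senescent replicate 1, 5994 in replicate 2 and 1720 in replicate 3, with scores of 8.01, 6.40 and 10.6, and was not called in control. Start sites of all gene types would give it to the gene model Gm44302. Neither Csnk1e region matched any of the 6 motifs searched, which were the E-box and its CACGCG variant, the AP-1 site and the ROR element core as spelled above, a further E-box variant (CACGTT) and the D-box (TTATGTAA, the site of PAR bZIP factors). In the region beside the start site 31.8% of bases were repeats in the reference. An E-box 572 bp upstream of the first start site lay outside both regions.

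These were 4 of the 628 regions (3.73% of all) called in 3 of 3 senescent and 0 of 3 control libraries. At least 2 such regions were found at 27 of 21840 genes (0.124%). This count was not planned and was made after the pairs at Usp2 and Csnk1e had been seen, so it is a description only. Of the 324 genes called in 3 senescent and 0 control libraries, 9 had at least 2, and Usp2 and Csnk1e were 2 of those 9. The number of libraries with a call was compared by permuting the group labels exactly (two-sided), and Usp2 and Csnk1e each gave p = 0.1, the smallest that 3 against 3 libraries can give. Any gene with their pattern gives this value, so the test restates the calls and adds nothing to them. The adjusted value was 1 over the 7948 genes with a peak, so neither passed a threshold of 0.05. In lists shortened to 2794 peaks, or to the scores above their medians, both genes were still called in 3 of 3 senescent and 0 of 3 control libraries, but of their 4 regions only 1, the internal promoter of Usp2, was. The share of all genes with this pattern is not given for these settings, so the counts there have no background to be read against. The same exact test gave p = 1 for Arntl, Arntl2 and Fbxw11.

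**Figure D2:**
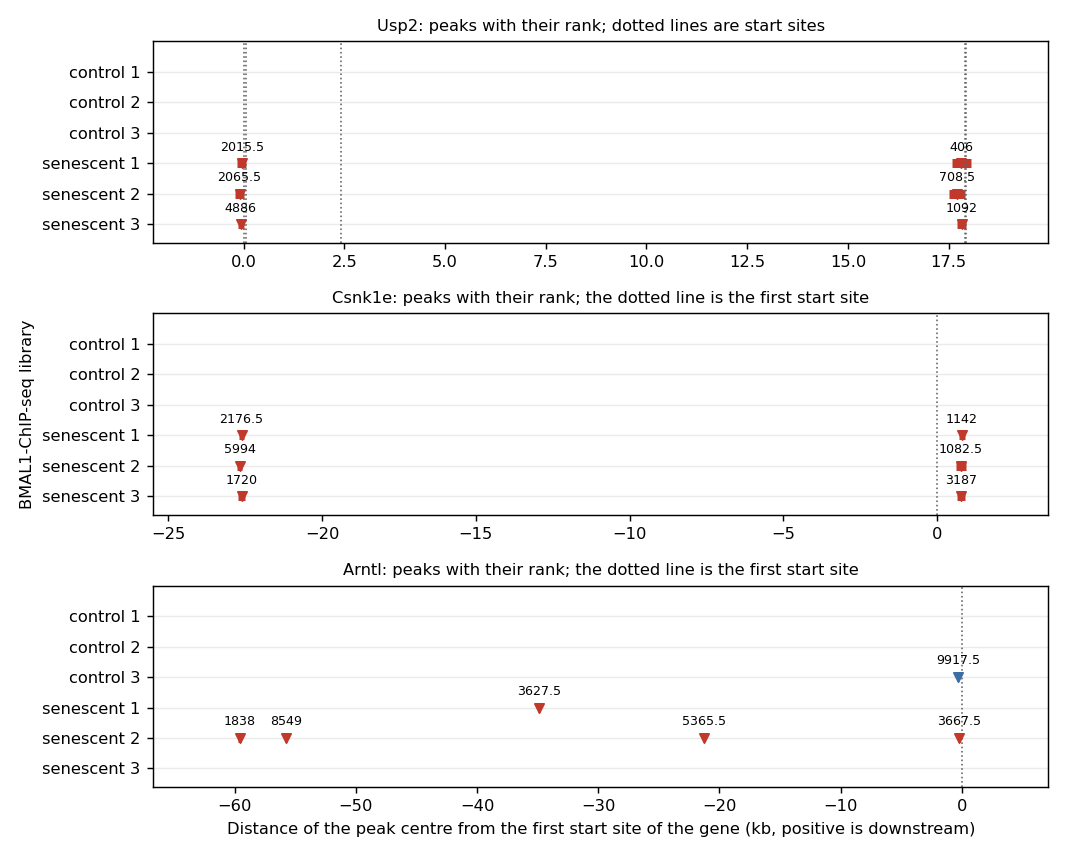
Position of each peak (triangle at its centre, bar for its width) along Usp2, Csnk1e and Arntl, in kb from the first start site with positive values downstream, for each library (blue control, red senescent) with the rank printed above. At Usp2 and Csnk1e the senescent peaks stacked at 2 positions in 3 of 3 libraries, whereas the distal Arntl peaks lay at 4 separate positions in 1 library each.

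Arntl (ENSMUSG00000055116.8, chr7:113207465-113314126, plus strand), the gene of BMAL1 itself, had 6 peaks in 5 regions. Its promoter region (chr7:113207111-113207300) was called in 1 library of each group. In control replicate 3 the peak ranked 9917.5, at 93.6% of the list, with its centre 294 bp upstream of the first start site, and in senescent replicate 2 it ranked 3667.5, at 37.4%, with its centre 235 bp upstream. These 2 libraries have the longest lists of their groups. The promoter peaks matched none of the 6 motifs. A ROR element core was found at 113207541-113207547, 76 bp downstream of the first start site and outside the peaks. The RefSeq promoter of Arntl (300 bases at a start) held it too, as did 2.61% of 32851 RefSeq promoters.

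The 4 other Arntl regions were intergenic, upstream of the gene, and each was called in a single senescent library. Their peaks ranked 1838 (59.6 kb from the first start site), 8549 (55.8 kb) and 5365.5 (21.3 kb) in senescent replicate 2 and 3627.5 (34.9 kb) in replicate 1. No control list and no other senescent list had a peak at these places. Calls in 1 library were the most common kind in these data, with 55.7% of all regions. Start sites of all gene types would give 3 of the 4 to the noncoding RNA gene 4930543E12Rik.

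Each of the 4 distal Arntl regions held an AP-1 site, TGACTCA on either strand, printed above, and none held an E-box. The site lay 111, 20, 19 and 38 bp from the peak centre in the order of the sequences. An AP-1 site anywhere in the region was found in 18.8% of the 4301 regions called in 1 senescent library alone and in 18.5% of all regions. These shares include promoters. Among regions within 1000 bp of a start site it was 6.16%, so among regions farther away, as these are, it was above 18.5%. This is a description of 4 regions of 1 gene, noticed after their values were known, and has no test.

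The paralogue Arntl2, whose product can take the place of BMAL1 in the complex, had a single peak. It ranked 3688 in senescent replicate 3 (chr6:146776774-146776938), 19.2 kb upstream of the start site and inside an untranslated exon of the neighbouring gene Stk38l. The nearest peaks in the other libraries were 71.3 to 174.7 kb away. No motif of the 6 was found in it.

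Clock, which encodes the usual partner of BMAL1, had no peak in any library. The closest peak lay 133.4 kb from a Clock start site in 5 libraries, and 646.4 kb away in control replicate 2. Within 1000 bp of its start sites the genome held both E-box variants and the D-box but no canonical E-box.

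Npas2, which encodes the alternative partner, had no peak that was nearest to its start site, but an intron of the gene held a region called in all 6 libraries (chr1:39281841-39282321). The region lay 87.8 to 87.9 kb downstream of the Npas2 start site, measured from the best peak of each library, and was nearer by about 2 kb (1.87 to 2.17 kb) to the start site of Rpl31, a ribosomal protein gene on the far side. Its best peaks ranked 1837.5, 655.5 and 2460.5 in control replicates 1, 2 and 3 and 370, 1380 and 1022.5 in the senescent replicates. The groups overlapped, with 1 control library ranked ahead of 2 senescent ones. An E-box at 39282084-39282089 lay 30 bp from the centre of the best-ranked peak.

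The geometric mean rank of the Npas2 intron region was 1436 in control and 805 in senescent MAFs, a difference of −0.83 in log2 rank (p = 0.4 by exact permutation, two-sided, and 0.61 after adjustment over the 1106 regions called in all 6 libraries, 6.58% of all regions). The smallest adjusted value of any of these regions was 0.278, and control and senescent ranks did not overlap in 36.0% of them. No difference between the groups was detectable at this region. The value rested on single libraries, and it was −0.27 without senescent replicate 1, −0.45 without control replicate 3 and −1.40 without control replicate 2. With the centre inside a transcript of the gene as the criterion, an assignment chosen after the values were seen, Npas2 was the 1 gene of the group called in all 6 libraries. Other peaks in the Npas2 introns were called in 1 library each, at rank 4415 in senescent replicate 2 and 2560.5 in control replicate 1.

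**Figure D3:**
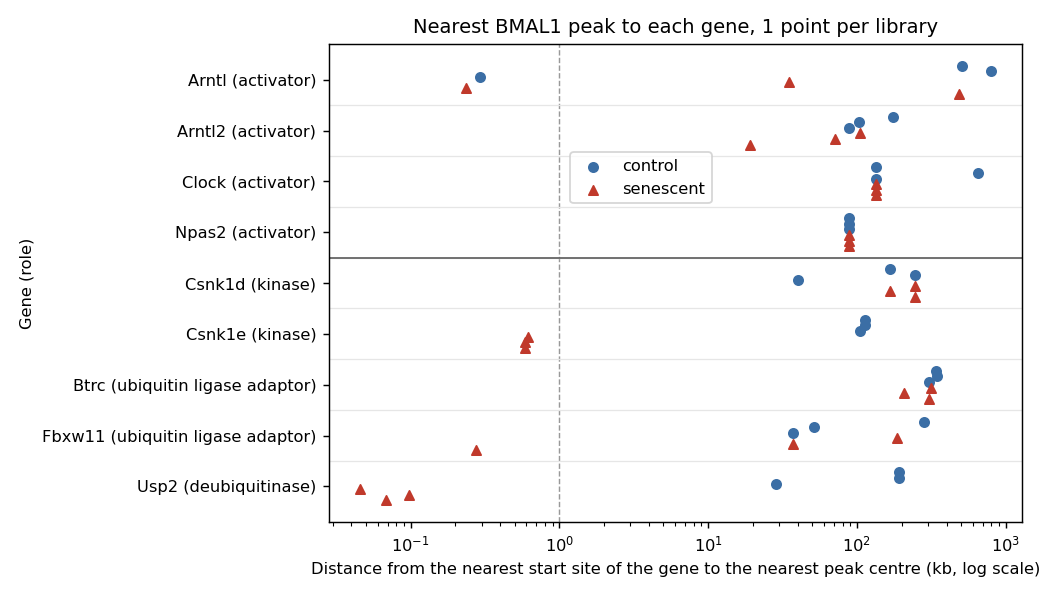
Distance in kb (log scale) from each gene's start sites to the centre of the nearest peak in each library, with blue circles for control, red triangles for senescent libraries and a dashed line at 1 kb. The 3 senescent libraries lie below 1 kb at Csnk1e and Usp2 and the 3 control libraries far above it, whereas the 6 libraries coincide at Npas2.

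The kinase gene Csnk1d, in contrast to Csnk1e, had no peak. The nearest lay 40.4 kb from its start sites in control replicate 3 and 166.5 to 245.8 kb away in the other 5 libraries. Its promoter side held an E-box, 931 bp upstream of the first start site, with no peak called there. Csnk1e, with an E-box at 572 bp, was likewise not called at that E-box.

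Of the ubiquitin ligase adaptor genes, Fbxw11 had peaks and Btrc had none. Btrc had no peak within 207.2 kb in any library, and the farthest nearest peak was 346.9 kb away. Fbxw11 had 5 peaks in 3 regions, spread over 4 libraries. The region seen most often (chr11:32605429-32605643, in an intron of Stk10 and 37.2 kb upstream) was called in 1 control and 2 senescent libraries, at rank 9808 in control replicate 3, 4676 in senescent replicate 2 and 2949 in senescent replicate 3, and held a D-box. The other Fbxw11 peaks were a promoter peak 277 bp upstream in senescent replicate 3 (rank 4804.5) and an intron peak 51.1 kb downstream in control replicate 2 (rank 2223), which held an AP-1 site.

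Taken by role and by nearest start site, the activators and the genes of protein turnover differed in how often and where they were called. Activator peaks numbered 0, 0 and 1 in the control and 1, 4 and 1 in the senescent libraries, against 0, 1 and 1 and 4, 5 and 6 for the turnover genes. Each senescent library had 1 activator gene with a peak, and 2, 3 and 3 turnover genes. Of the 6 activator regions, 5 were called in 1 library, compared with 2 of the 7 turnover regions. With peaks assigned by the nearest start site, the best activator rank was 1838 and the best turnover rank 406. With peaks assigned by the gene they lie in, this order turned, since the Npas2 intron peak ranked 370 in senescent replicate 1. The activators then also had more peaks over the 6 libraries, all at Npas2. Npas2 had 3, 1 and 1 in control and 1, 2 and 1 in senescent replicates 1, 2 and 3. Usp2 and Csnk1e had 1 each in every senescent library and none in control, and Fbxw11 had 1, in control replicate 2.

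The turnover genes also had peaks closer to their start sites. Of 17 turnover peaks, 10 (58.8%) were within 1000 bp of one, compared with 2 of 7 activator peaks (28.6%) and 37.6% of all peaks. Peaks lay a median of 73.0% down their list at the activators and 47.8% at the turnover genes. The space in which a peak would be given to a gene was 557.64 kb for the 4 activators and 482.0 kb for the 5 turnover genes, which gives 12.6 and 35.3 peaks per Mb, beside 13.1 over all genes. In merged regions, where a site called in several libraries counts once, the densities were 10.8 and 14.5 per Mb, beside 6.17 for all genes. Of the 17 turnover peaks 12 were at Usp2 and Csnk1e, so these values rest on 2 genes.

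**Figure D4:**
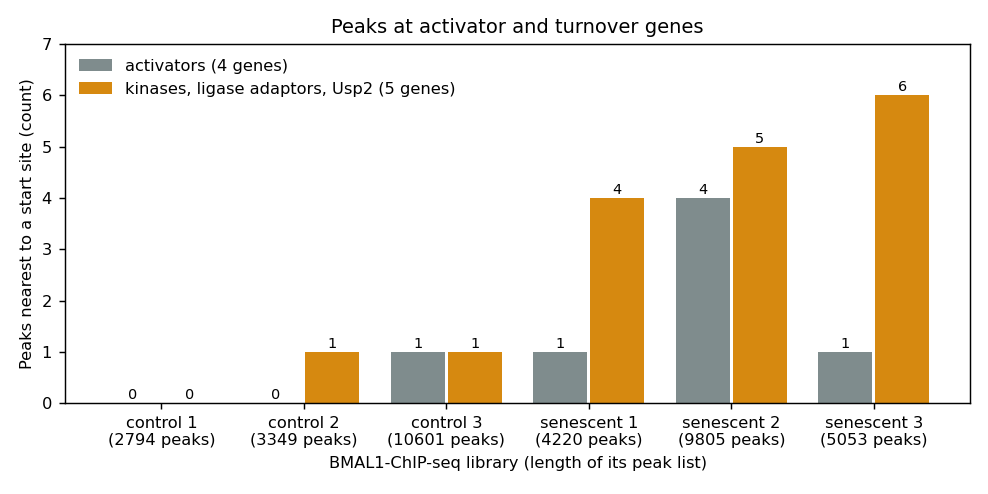
Number of peaks (vertical axis, from 0) in each BMAL1-ChIP-seq library, with the length of its list, that had their nearest start site at an activator gene (grey) or at a kinase, ubiquitin ligase adaptor or deubiquitinase gene (orange). Turnover genes had 4, 5 and 6 peaks in the senescent libraries and 0, 1 and 1 in control.

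E-box content was read in the same window for all regions. The best-ranked peak of a region was here the one with the best rank as a percentage of its list. A match within 100 bp of its centre was found in 1 of 13 regions (7.69%), the upstream promoter of Usp2, beside 16.7% of all regions, 9.27% of the regions called in 1 library, 44.6% of the regions called in all 6 libraries and 46.8% of those called in 3 senescent and 0 control libraries. The Usp2 match rested on this choice, which took the peak of senescent replicate 2 (rank 2065.5, 21.1% of its list). By rank number the peak of senescent replicate 1 (2015.5, 47.8%) came first, and the E-box lay more than 100 bp from its centre. Single-library calls made up 7 of the 13, and a count of 1 in 13 is too small to set apart from the share of all regions. The start sites of the genes did not lack the motif, since 4 of 9 genes, Arntl, Csnk1d, Csnk1e and Usp2, had an E-box within 1000 bp of a start site, beside 32.2% of all genes. At Arntl it lay 644 bp upstream of an internal start site (113234623), and none lay within 1000 bp of the start sites beside its promoter peaks. Only at Usp2, of these 4, did a peak cover such an E-box. In the shorter RefSeq promoters, which were found for 7 of the 9 genes, CACGTG was found in 0 of 13 promoters (7.15% of all promoters) and CACGCG in 5 of 13, at Clock, Csnk1e, Npas2 and Usp2 (9.27% of all promoters). Within 1000 bp of a start site, CACGCG was found at 5 of 9 genes, beside 36.4% of all genes.

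The rest of the clock network gave the contrast. Of 17 genes of its repressors, nuclear receptors and output factors, 14 had a peak in all 6 libraries, none lacked a peak, and none was called in 3 senescent and 0 control libraries. Nfil3 came close to that last pattern, and is named after its values were seen. It ranked 1427, 1903.5 and 1239 in senescent replicates 1, 2 and 3. Its only control peak ranked 9692 of 10601, in control replicate 3, and would fall outside a list shortened to 2794 peaks. Per1, a repressor, ranked 1 or 2 in every list, Ciart likewise, Per2 ranked 3 or 4, Dbp 4 to 6 and Nr1d2 3 to 10. The best rank of a peak assigned to any of the 9 genes by the nearest start site was 406, and that of a peak inside one of them was 370, in the intron of Npas2. Among 26 other genes for enzymes that modify or degrade clock proteins, 3 were called in all 6 libraries, 12 had no peak and 2 showed the pattern of Usp2 and Csnk1e. These last were Mdm2, a ubiquitin ligase of p53, and Usp7, a deubiquitinase, named after their values were seen. In senescent replicates 1, 2 and 3 Mdm2 ranked 1874.5, 3186.5 and 1071.5, and Usp7 3614, 846.5 and 1209.5.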

How the data were processed

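The authors aligned paired reads to mm10 with BWA, removed duplicates with Picard and called peaks for each library with MACS2 (HiChIP pipeline, FDR up to 1%). Replicates were not pooled. The deposited score was read as the −log10 of the q-value, from the values: the smallest of each list lay between 2.02 and 2.12. Scores grow with depth and were used only for ranks within a list. The study's read-based DiffBind comparison was not repeated.

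Start sites came from protein-coding transcripts of GENCODE M21 (GRCm38, 21840 genes), promoter sequences from RefSeq (GRCm38), and 0 peaks ran past a chromosome end. Motifs were exact matches. Python 3.11.15 with pandas 2.3.3 and pysam 0.24.0 was used, and scripts were tested on simulated data. All 20 arrangements of 3 against 3 libraries were enumerated, with Benjamini-Hochberg adjustment. The rank test was planned for genes called in all 6 libraries. As none was, ranks are described. A test of calls, the count of genes with at least 2 regions called in 3 senescent and 0 control libraries, and the Npas2 intron region were added after the values were seen.

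The 9 genes, the lists and the tests were chosen with earlier results of these data known. All 9 genes and each region in at least 2 libraries were to be named, with at most 5 of each other list. The other Arntl, Arntl2, Fbxw11 and Npas2 peaks, and Nfil3 of the clock network list, were added after the values were seen. The planned search for genes of a like pattern needed a member called in all 6 libraries and was not made. Control and senescent libraries of the same number were no more alike over 1106 regions (r = 0.075, −0.051 and −0.018) than those of different numbers (−0.089 to 0.089). These values cannot tell whether libraries of a number shared an animal or culture. The lane named in the file headers was the same for the 6 libraries.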

Additional observations from a re-analysis of the deposited data

How the results depend on the processing

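The difference in the number of genes with a peak, 2.67 per library, stayed positive throughout. It was 2.00 with equal list lengths, 2.00 with start sites of any gene type and 1.67 with the centre inside a transcript, and 2.17 to 3.17 when each library was left out in turn. The number of genes called in all 6 libraries was 0, and 1 (Npas2) with the centre inside a transcript, a criterion chosen after the values were seen. The number of regions called in at least 2 of 3 senescent and 0 of 3 control libraries was 4, with 3 above the median score of each list and 5 without control replicate 3. Of regions called in 3 of 3 senescent and 0 of 3 control libraries, 4 in all, 1 was left above the median scores and 1 with equal list lengths, whereas the number of genes with this pattern was 2 in both and with start sites of any gene type (chosen after the values were seen). No share of all genes is given beside these alternatives. The number called in at least 2 control libraries and in no senescent one was 0 under every alternative run. With libraries of the same number as pairs (replicate block) the log2 rank difference at the Npas2 intron was −0.83, as without it (exact sign-flip p = 0.5, 2 of 3 pairs, smallest possible 0.25). Leaving out each library in turn it lay between −1.40 and −0.27, and as a percentage of the list it gave an exact permutation p = 0.2. Peaks above the median score gave no value there, because control replicate 1 lay below it, and the best peak within 1000 bp gave none because no gene was called in all 6 libraries. Peak lists without reads limit the rest: weak binding under the FDR limit was not seen, and 3 libraries a group could not reach a p under 0.1.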
